A study of Rattus norvegicus with 399 samples.

Results

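On a targeted rat expression panel, 8 genes that the nuclear receptor PPAR alpha is known to control or that carry out fatty acid oxidation were followed through 5 tissues of rats exposed to 1 of 2 dichlorobenzenes. They were Cyp4a2, Acaa1a, Ehhadh, Ech1, Decr1, Acadm, Crat and Vnn1, taken by symbol from the 2603 genes of the panel. These were read by 10 of its 2654 probes, since Cyp4a2 has 3 probes and each other gene has 1. Female Sprague-Dawley rats, 9 weeks old, received 1,2-dichlorobenzene (1,2-DCB, chlorines on neighbouring ring carbons) at 1, 10, 30, 100, 250 or 500 ppm, or 1,4-dichlorobenzene (1,4-DCB, chlorines on opposite ring carbons) at 1, 10, 50, 150, 400 or 800 ppm, and each compound had its own controls at 0 ppm. Liver, kidney, heart, lung and ovary were taken on study day 5. Each group gave 10 control or 5 exposed libraries at most (390 used of 399), with 9 controls in the 1,2-DCB kidney, 4 rats at 1 ppm in the 1,4-DCB kidney and 3 to 8 in several lung groups. The submitters marked 9 libraries as not used. The number in each library's title was read as the animal, so the liver and the kidney of a number were taken to come from the same rat. How the rats were exposed is not given in the sources that were used.

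PPAR alpha is a receptor for fatty acids and for peroxisome proliferators that pairs with RXR and raises transcription of genes for fatty acid uptake, activation and oxidation. In rodent liver and in the proximal tubule of the kidney its classical targets include the Cyp4a hydroxylases and the peroxisomal oxidation enzymes. Peroxisomes shorten very long chains and mitochondria complete the oxidation of shorter ones, so that enzymes of both organelles belong to the same route.

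Of the 8 members, 5 had an entry among the RefSeq promoter windows (GRCr8 build): Cyp4a2, Acaa1a, Ehhadh, Acadm and Crat. Vnn1, Ech1 and Decr1 had none. The 250 bases before the annotated gene start are printed, 5′ to 3′ on the gene's strand, for the 3 members of these 5 whose kidney levels rose most, with the half-site AGGTCA of nuclear receptors in capitals.
Cyp4a2, chr5:134170909-134171158, minus strand: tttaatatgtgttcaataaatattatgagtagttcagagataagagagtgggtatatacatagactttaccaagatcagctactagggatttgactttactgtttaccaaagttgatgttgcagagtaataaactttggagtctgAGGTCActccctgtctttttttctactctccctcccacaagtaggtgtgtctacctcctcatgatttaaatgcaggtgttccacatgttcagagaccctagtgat
Ehhadh, chr11:92746159-92746408, plus strand: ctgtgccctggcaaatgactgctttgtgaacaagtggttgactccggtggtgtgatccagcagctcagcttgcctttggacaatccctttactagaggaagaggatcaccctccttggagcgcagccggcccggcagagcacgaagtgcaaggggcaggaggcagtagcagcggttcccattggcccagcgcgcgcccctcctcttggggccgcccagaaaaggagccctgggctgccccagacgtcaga
Acaa1a, chr8:127957231-127957480, plus strand: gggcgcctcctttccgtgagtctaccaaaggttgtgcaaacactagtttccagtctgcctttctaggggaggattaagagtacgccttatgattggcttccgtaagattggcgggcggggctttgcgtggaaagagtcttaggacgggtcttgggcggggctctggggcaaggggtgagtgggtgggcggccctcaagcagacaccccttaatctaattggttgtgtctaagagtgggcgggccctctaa
The half-site AGGTCA, searched on both strands, lay in 1 of the 5 member windows, that of Cyp4a2, near the middle of the window. It lay in 14.1% of all 33469 windows of 250 bases. The direct repeat of AGGTCA with 1 base of any kind between its copies, which contains the half-site and is the textbook element of PPAR and RXR, searched on both strands, lay in none of the 5 and in 0.0508% of all windows. A match describes these letters only.

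Levels are given as normalised CPM (counts scaled to a common library size), scaled within each tissue and compound, and changes as log2 fold changes against the compound's own controls with their standard errors (SE). A probe was called where its adjusted p was below 0.05 in edgeR's quasi-likelihood test with Benjamini-Hochberg adjustment over all probes tested in that comparison. Counts were used as deposited, after the authors' adjustment for attenuation. Library totals of these adjusted counts ran from 1202354 to 69774071 (median 22555404). Scaling bears on a few comparisons. With library totals alone the median probe stood 0.43 higher (log2) in liver at 500 ppm of 1,2-DCB and 0.30 higher in liver at 250 ppm. It stood 0.27 higher in heart at 1 ppm and 0.14 lower in kidney at 500 ppm. In lung at 400 and 800 ppm of 1,4-DCB it stood 0.13 and 0.18 lower. With the trimmed mean (TMM) factors used here these medians lay between -0.03 and 0.03. TMM factors bring such medians near 0 by design, so these medians, also where given below, do not show which scaling is right. Over all probes, the 5 livers at 500 ppm of 1,2-DCB stood apart from the median liver library (r of 0.892 to 0.929, where the tissue's median was 0.993), and the 5 livers at 800 ppm of 1,4-DCB did so less (0.951 to 0.961). As these are the whole exposed groups, they cannot be left out. Single libraries that stood apart in heart and ovary are named beside the results they touch, and leaving out the kidney of rat F201 at 10 ppm of 1,2-DCB (r of 0.951) or of 1,4-DCB control rat F1 (0.942, median 0.990) changed no member's call at the 2 highest concentrations of that compound. In kidney 10 of 10 member probes passed the filter on low counts. In liver, heart, lung and ovary 8 of 10 passed, because the probes Cyp4a2_8425 and Cyp4a2_8426 were at or near 0 there.

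**Figure D1:**
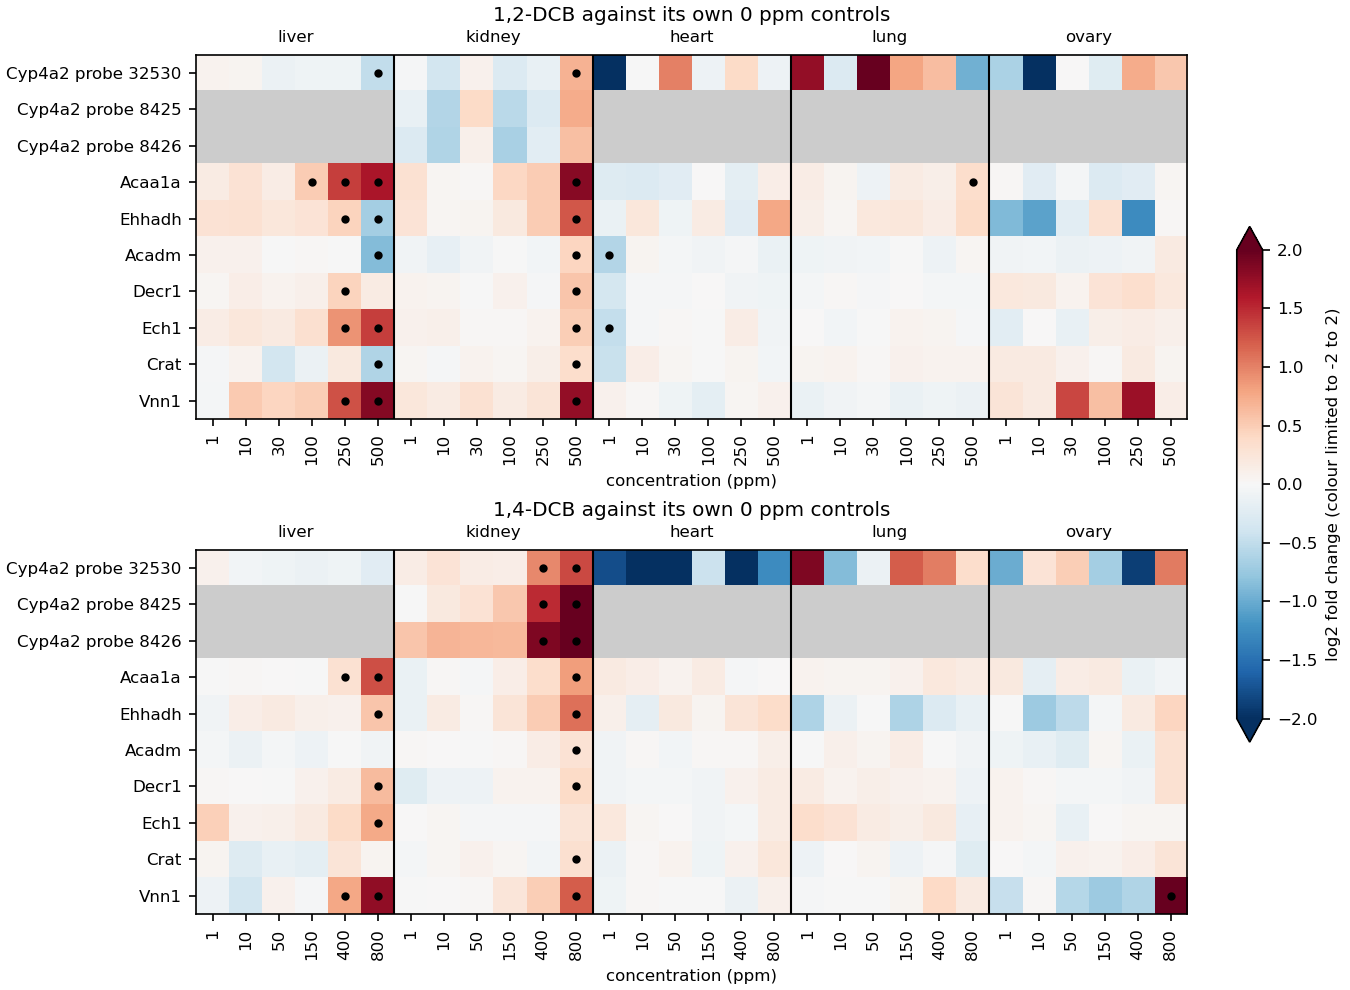
Log2 fold change of each of the 10 member probes (rows) at each concentration in ppm (columns) in each tissue, for 1,2-DCB (top) and 1,4-DCB (bottom) against the compound's own controls. Dots mark called probes, grey marks probes not tested, most calls lie at the highest concentrations of liver and kidney, where Acaa1a at 500 ppm of 1,2-DCB reached 1.63 and 1.83, and Cyp4a2 was not called in heart, lung or ovary.

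Kidney showed the members rising together. At 500 ppm of 1,2-DCB 8 of the 10 member probes were called, all higher, where 16.4% of all probes were called and 8.72% were called higher. At 800 ppm of 1,4-DCB 9 of 10 were called, all higher, where 5.03% of all probes were called and 2.37% were called higher. The members were chosen with earlier results of these data known. Counts beside these shares, here and below, therefore describe the members and do not test them as a set. The median change of the 10 probes was 0.64 for 1,2-DCB and 0.97 for 1,4-DCB, beside medians of -0.02 and -0.03 over all probes. Of the 10 probes 3 are of Cyp4a2, so these counts and medians weight that gene 3 times. All 3 were among the calls with 1,4-DCB, and 1 of them was with 1,2-DCB. The 2 medians therefore do not rank the compounds. As the tissue was taken in bulk, more RNA per cell and more cells of a type cannot be told apart. Of 14 proximal tubule markers 3 were on the panel, and their summed level ran from 671 to 865 CPM by library total in the 1,2-DCB controls and from 633 to 879 CPM at 500 ppm, and from 599 to 943 CPM in the 1,4-DCB controls and from 615 to 793 CPM at 800 ppm.

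Cyp4a2 encodes a P450 that adds a hydroxyl group to the end of fatty acid and arachidonic acid chains. Its abundant probe, Cyp4a2_32530, ran from 2050 through a median of 3026 to 3873 CPM in the 10 kidneys of the 1,4-DCB controls and read 4204, 4777, 5488, 7087 and 7125 CPM at 400 ppm and 4836, 6162, 7230, 7533 and 11197 CPM at 800 ppm. No exposed kidney at 400 or 800 ppm overlapped the controls. The changes were 0.96 ± 0.18 (SE, adjusted p = 0.00563) and 1.32 ± 0.18 (adjusted p = 3.49e-06). At 400 ppm the probe's call was lost without rat F504 (0.87, adjusted p = 0.0665). Cyp4a2_8425 rose by 1.49 ± 0.31 (adjusted p = 0.0176) and 2.05 ± 0.31 (adjusted p = 1.89e-05) at these concentrations, from 6.03 ± 3.37 CPM (SD, n = 10) in controls to 16.9 ± 6.15 and 25.03 ± 8.34 CPM (SD, n = 5). Cyp4a2_8426 rose by 1.87 ± 0.32 (adjusted p = 0.00137) and 2.35 ± 0.32 (adjusted p = 3.49e-06), from 7.74 ± 2.94 CPM (SD, n = 10) to 28.3 ± 9.25 and 39.4 ± 23.1 CPM (SD, n = 5). The call of Cyp4a2_8425 at 400 ppm was lost without rat F503 (adjusted p = 0.0828) or rat F504 (adjusted p = 0.159), with library totals alone (adjusted p = 0.0734) and in a fit of that group and the controls only (adjusted p = 0.110). All 3 calls at 400 ppm were probes of this gene, where 0.215% of all probes were called and all of those were higher, so the count of 3 stands for 1 gene. The other 2 of the 5 probes called at 400 ppm were the clock genes Dbp (0.88, adjusted p = 5.77e-04) and Nr1d2 (0.70, adjusted p = 0.0416). Rat has near-identical Cyp4a genes, and which of them each probe reads is uncertain.

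With 1,2-DCB the abundant Cyp4a2 probe ran from 1960 through 3528 to 4493 CPM in 9 control kidneys and read 4285, 4938, 5122, 6003 and 6825 CPM at 500 ppm. Of the exposed kidneys 4 of 5 lay above all controls. The change was 0.69 ± 0.21 (SE, adjusted p = 0.0202), and it lost its call without rat F601 (0.59, adjusted p = 0.0673) or rat F602 (0.65, adjusted p = 0.0519). Cyp4a2_8425 and Cyp4a2_8426 had changes of 0.75 ± 0.35 (adjusted p = 0.151) and 0.59 ± 0.38 (adjusted p = 0.314) and were not called. At 250 ppm the abundant probe read 1819, 2215, 2746, 4152 and 4325 CPM, within or below the control range (-0.14 ± 0.21). No member was called at 250 ppm by edgeR, DESeq2 or limma voom, 2 of 10 had an unadjusted p below 0.05, and 0.0846% of all probes were called.

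Acaa1a is the peroxisomal thiolase that splits off acetyl-CoA in the last step of each cycle. A near-identical copy of the gene, Acaa1b, exists in rodents, and which of them the probe reads is uncertain. In 1,2-DCB kidneys it ran from 91.9 through 130.2 to 167.5 CPM in controls and read 292, 364, 441, 608 and 652 CPM at 500 ppm. All 5 exposed kidneys lay well above the highest control, and they also differed among themselves by more than the controls did. The change was 1.83 ± 0.15 (SE, adjusted p = 8.20e-12). At 250 ppm the kidneys read 164 to 211 CPM, 4 of 5 lay above all controls, and the change of 0.50 ± 0.15 was not called (adjusted p = 0.313). In 1,4-DCB kidneys it ran from 85.1 through 151.8 to 187.8 CPM in controls and read 228, 249, 251, 283 and 297 CPM at 800 ppm (0.83 ± 0.15, adjusted p = 0.000323), again without overlap.

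Ehhadh, the bifunctional hydratase and dehydrogenase of the peroxisome, read 92.1, 93.3, 123.9, 129.5 and 145.2 CPM at 500 ppm of 1,2-DCB against 33.8 to 60.4 CPM (median 52.3) in controls. In 1,4-DCB kidneys it read 99.3, 112.8, 115.3, 117.5 and 121.2 CPM at 800 ppm against 27.1 to 69.2 CPM (median 58.4). The groups did not overlap with either compound, and the changes were 1.24 ± 0.13 (SE, adjusted p = 4.42e-09) and 1.10 ± 0.15 (adjusted p = 4.13e-06). One step lower, at 250 ppm of 1,2-DCB and 400 ppm of 1,4-DCB, 4 of 5 kidneys lay above all controls with each compound, with changes of 0.51 ± 0.13 and 0.51 ± 0.16 that were not called (adjusted p = 0.262 and 0.343).

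Vnn1 encodes vanin 1, a pantetheinase that frees the cysteamine and pantothenate of coenzyme A breakdown. At 500 ppm of 1,2-DCB it read 578, 682, 805, 837 and 861 CPM against 167 to 278 CPM (median 217) in controls, and at 800 ppm of 1,4-DCB it read 419, 613, 616, 623 and 733 CPM against 193 to 315 CPM (median 259). Neither exposed group overlapped its controls (1.76 ± 0.14, SE, adjusted p = 7.07e-12, and 1.21 ± 0.16, adjusted p = 1.03e-06). At 400 ppm of 1,4-DCB 4 of 5 kidneys stood above all controls and the change of 0.49 ± 0.16 was not called (adjusted p = 0.380).

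**Figure D2:**
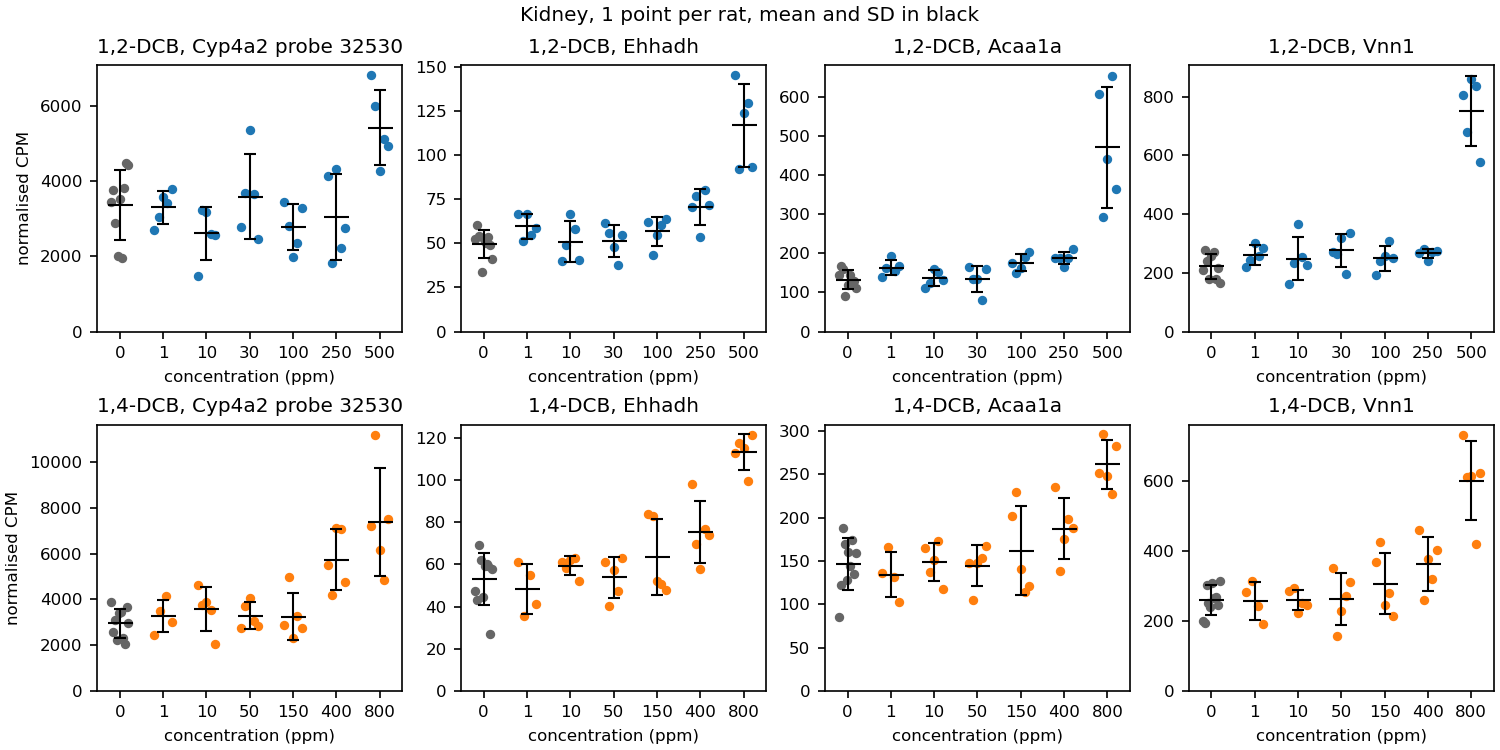
Normalised CPM in each kidney (points) by concentration in ppm, with the group mean and SD in black, for 4 members under 1,2-DCB (top) and 1,4-DCB (bottom). Every axis starts at 0. Ehhadh, Acaa1a and Vnn1 rose above all controls in all 5 rats at 500 and at 800 ppm, and Cyp4a2 did so at 400 and 800 ppm of 1,4-DCB.

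The other 4 members moved less. Decr1, the mitochondrial dienoyl-CoA reductase needed for polyunsaturated chains, went from 220 ± 29.3 CPM (SD, n = 9) to 324 ± 28.4 CPM (n = 5) with 1,2-DCB (0.56 ± 0.08, SE, adjusted p = 1.49e-06) and from 229 ± 31.2 to 300 ± 24.4 CPM with 1,4-DCB (0.39 ± 0.11, adjusted p = 0.0232), and its 5 exposed kidneys lay above all controls with both compounds. Acadm, the medium-chain acyl-CoA dehydrogenase of mitochondria, went from 323 ± 19.6 to 434 ± 55.4 CPM with 1,2-DCB (0.43 ± 0.07, adjusted p = 2.61e-05) and from 292 ± 19.1 to 358 ± 19.7 CPM with 1,4-DCB (0.30 ± 0.07, adjusted p = 0.00668), without overlap in either. Crat, the carnitine acetyltransferase, rose by 0.36 ± 0.09 (adjusted p = 0.00309; 3 of 5 above all controls) and 0.32 ± 0.08 (adjusted p = 0.00913; 5 of 5). Ech1, a dienoyl-CoA isomerase of peroxisomes and mitochondria, rose by 0.49 ± 0.08 with 1,2-DCB (adjusted p = 4.51e-05; 5 of 5 above all controls), from 265 ± 30.2 to 372 ± 25.96 CPM. With 1,4-DCB it went from 260 ± 40.0 to 310 ± 34.8 CPM, 1 of 5 stood above all controls and it was not called (0.25 ± 0.10, adjusted p = 0.147). The 1,4-DCB calls of Decr1 and Crat were the ones near the threshold: Decr1 lost its call without rat F601, F603 or F605 (largest adjusted p = 0.0812) and Crat without rat F603 (adjusted p = 0.0626), and with library totals alone Acadm, Decr1 and Crat of 1,4-DCB and Crat of 1,2-DCB were no longer called while all kept a positive change.

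Outside the members, 61 probes of the panel belong to 5 lists of pathway genes. In kidney at 500 ppm of 1,2-DCB 13 of 57 tested probes of these lists were higher and 4 lower, beside 16.4% of all probes called in either direction. At 800 ppm of 1,4-DCB 1 of 57 was higher and 1 lower, beside 5.03%. Among the omega hydroxylases 2 of 3 rose with 1,2-DCB, Cyp4a1 by 0.67 ± 0.14 (SE, adjusted p = 0.000870) and Cyp4a8 by 0.54 ± 0.16 (adjusted p = 0.0167), and 0 of 3 was called with 1,4-DCB. Of 12 probes on the peroxisomal list 5 rose and 1 fell with 1,2-DCB. Among those that rose were the isomerase Eci2 (0.65 ± 0.11, adjusted p = 3.57e-05), the thioesterase Acot12, whose enzyme is cytosolic (0.81 ± 0.16, adjusted p = 0.000301), and catalase, Cat (0.66 ± 0.13, adjusted p = 0.000337). None of the 12 was called with 1,4-DCB.

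Of 15 probes on the mitochondrial list 5 rose and 1 fell in kidney with 1,2-DCB and 1 rose with 1,4-DCB. Eci1 (0.95 ± 0.13, SE), Acaa2 (0.89 ± 0.20) and Cpt2 (0.57 ± 0.10), which encode an isomerase, a thiolase and the inner carnitine palmitoyltransferase, rose with 1,2-DCB (adjusted p = 1.99e-06, 0.00182 and 7.53e-05). Of the other PPAR target genes 0 rose and 1 of 14 fell, the lipid droplet coat protein Plin2 (-0.35 ± 0.09, adjusted p = 0.00726), and none was called with 1,4-DCB. Among 13 receptor and coregulator probes Ppara itself rose with 1,2-DCB (0.52 ± 0.12, adjusted p = 0.00203), and Ppard, the delta receptor, fell with both compounds (-1.13 ± 0.23, adjusted p = 0.000533, and -1.61 ± 0.24, adjusted p = 9.79e-06).

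Genes of the circadian clock moved in the same kidneys. Of 17 listed clock genes 7 were on the panel, and their summed level ran from 295 to 631 CPM by library total in the 1,2-DCB controls and from 662 to 1141 CPM at 500 ppm, and from 265 to 447 CPM in the 1,4-DCB controls and from 1057 to 1279 CPM at 800 ppm. At 250 ppm of 1,2-DCB and 400 ppm of 1,4-DCB the sum ran from 346 to 546 and from 298 to 488 CPM. A summed clock level, here and below, adds genes that can move in opposite directions, so it does not show the change of each. At the top concentrations Dbp, an output factor of the clock, rose by 1.87 ± 0.36 (SE, adjusted p = 0.000278) and 3.05 ± 0.14 (adjusted p = 1.50e-19), and Arntl, its core activator, fell by 2.12 and 3.47 on the log2 scale (adjusted p = 7.52e-07 and 7.80e-17). Summed fibroblast markers (5 of 6 listed genes on the panel) ran from 665 to 1186 CPM in the 1,2-DCB controls and from 240 to 480 CPM at 500 ppm. Summed macrophage markers (3 of 8 listed genes) ran from 772 to 1224 CPM in the same controls and from 387 to 793 CPM at 500 ppm, and summed endothelial markers (3 of 7) from 299 to 479 and from 173 to 230 CPM. In the 1,4-DCB kidneys these 3 sums overlapped between controls and 800 ppm. Summed lymphocyte markers (4 of 7 listed genes) ran from 12.6 to 17.7 CPM in the 1,2-DCB controls and from 6.73 to 9.00 CPM at 500 ppm, and from 9.20 to 17.5 and from 7.31 to 8.59 CPM with 1,4-DCB. The part of the clock and of these cell types in the members' changes was not tested.

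Liver did not repeat the kidney pattern with 1,2-DCB. At 500 ppm 3 of 8 tested member probes were called higher and 4 lower, where 67.8% of all probes were called, 35% higher and 32.7% lower, and the members' median change was -0.17 beside 0.03 over all probes. These counts depended on the scaling. With library totals alone Ehhadh, Cyp4a2 and Crat were no longer called lower and Decr1 was called higher, while Acadm stayed lower. At 250 ppm 5 of 8 were higher and 0 lower, where 24.8% of all probes were called and 13.5% were called higher. With 1,4-DCB 5 of 8 were higher and 0 lower at 800 ppm, where 34.9% of all probes were called and 19.5% were called higher, with a median of 0.60 beside -0.0011 over all probes, and 2 of 8 were higher at 400 ppm, where 6.44% were called and 4.75% were called higher. Of 12 hepatocyte markers 10 were on the panel, and in liver at 500 ppm of 1,2-DCB 1 was higher and 8 were lower. Their summed level by library total ran from 549406 to 625221 CPM in controls and from 634517 to 700092 CPM at 500 ppm. The calls used TMM factors and the sum used library totals, and the sum mostly follows its most abundant markers. It therefore does not show that the single markers rose.

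Clock genes and markers of other cells were also called in these livers. At 500 ppm of 1,2-DCB 2 of 7 clock genes were higher, among them Dbp (3.35, adjusted p = 7.63e-12), and 3 lower, among them Npas2 (-2.95, adjusted p = 2.69e-15), and at 800 ppm of 1,4-DCB 2 of 6 tested were higher and 2 lower. At 250 ppm of 1,2-DCB Arntl (-0.65, adjusted p = 0.00272) and Npas2 (-0.68, adjusted p = 0.00396) were lower. The summed level of the clock genes ran from 25.8 to 51.4 CPM by library total in the 1,2-DCB controls, from 29.3 to 39.6 CPM at 250 ppm and from 44.2 to 98.6 CPM at 500 ppm, and from 32.7 to 49.5 CPM in the 1,4-DCB controls and from 32.003 to 39.97 CPM at 800 ppm. Summed macrophage markers ran from 37.5 to 62.6 CPM in the 1,2-DCB controls, from 44.6 to 64.4 CPM at 250 ppm and from 26.5 to 39.1 CPM at 500 ppm. Markers called lower at 250 ppm were the endothelial receptor Kdr (-0.44, adjusted p = 0.00287), the hemoglobins Hba2 (-0.80, adjusted p = 0.0196) and Hbb (-0.79, adjusted p = 0.0152) and the neutrophil protein Lcn2 (-1.36, adjusted p = 4.47e-05), and their summed lists overlapped between controls and 250 ppm. At 500 ppm 3 of 3 macrophage, 2 of 3 endothelial and 2 of 3 fibroblast probes tested were lower and none higher, and at 800 ppm of 1,4-DCB 2 of 3, 1 of 3 and 1 of 4 were lower and none higher, while 3 of 3 red cell probes were higher. Large shares of all probes were called in these livers, as given in the paragraph above, so counts from lists this short say little alone. The part of the clock and marker genes in the members' changes was not tested.

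Acaa1a and Vnn1 rose in liver with both compounds. In 1,2-DCB livers Acaa1a ran from 16.3 through 25.9 to 34.4 CPM in controls and read 45.7, 57.7, 77.3, 79.025 and 89.6 CPM at 250 ppm and 69.8, 80.1, 80.9, 84.1 and 99.3 CPM at 500 ppm. All 10 of these livers stood above the highest control (1.38 ± 0.13, SE, adjusted p = 1.86e-10, and 1.63 ± 0.13, adjusted p = 1.12e-13). At 100 ppm Acaa1a was the single member called (0.50 ± 0.14, adjusted p = 0.0398; 3 of 5 above all controls), where 2.13% of all probes were called, and the call was lost without rat F401, F403 or F404 (adjusted p = 0.0665 to 0.176). In 1,4-DCB livers it ran from 23.3 through 28.3 to 31.5 CPM in controls and read 32.6, 32.7, 34.6, 35.1 and 38.7 CPM at 400 ppm and 63.1, 66.4, 68.6, 72.3 and 74.7 CPM at 800 ppm. The 5 livers at 400 ppm lay just above the controls (0.30 ± 0.08, adjusted p = 0.0206), and those at 800 ppm lay far above them (1.29 ± 0.08, adjusted p = 9.95e-16). The call at 400 ppm was lost without rat F502 (adjusted p = 0.157) or rat F504 (adjusted p = 0.0551).

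Vnn1 was scarce in control liver, at 2.53 to 7.39 CPM (median 4.85) for 1,2-DCB and 2.85 to 7.20 CPM (median 5.41) for 1,4-DCB. It read 8.32, 9.10, 10.1, 13.6 and 16.1 CPM at 250 ppm and 8.12, 13.1, 17.9, 21.6 and 24.3 CPM at 500 ppm of 1,2-DCB, and 10.0, 14.4, 17.7, 19.6 and 27.97 CPM at 800 ppm of 1,4-DCB. Every one of these 15 livers lay above its controls. The changes were 1.27 ± 0.22 (SE, adjusted p = 2.73e-05), 1.84 ± 0.22 (adjusted p = 2.37e-09) and 1.77 ± 0.21 (adjusted p = 1.69e-08). At 400 ppm of 1,4-DCB 3 of 5 lay above all controls (0.78 ± 0.21, adjusted p = 0.0192), and the call was lost without rat F502 (0.50, adjusted p = 0.241) or rat F503 (0.69, adjusted p = 0.0682).

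Ech1 rose in liver by 0.89 ± 0.17 (SE, adjusted p = 8.64e-05) at 250 ppm and 1.38 ± 0.17 (adjusted p = 3.07e-09) at 500 ppm of 1,2-DCB. It ran from 16.1 through 27.2 to 37.9 CPM in controls and read 53.4, 66.9, 72.3, 72.6 and 81.8 CPM at 500 ppm, so that no exposed liver overlapped the controls. With 1,4-DCB it ran from 20.1 to 40.1 CPM in controls and read 38.2, 38.8, 46.6, 49.6 and 56.5 CPM at 800 ppm, with 3 of 5 above all controls (0.76 ± 0.13, adjusted p = 1.17e-05). Decr1 rose by 0.45 ± 0.09 at 250 ppm of 1,2-DCB (adjusted p = 0.000362; 5 of 5 above all controls) and by 0.63 ± 0.10 at 800 ppm of 1,4-DCB (adjusted p = 1.47e-06; 5 of 5). At 500 ppm of 1,2-DCB it read 72.5 ± 5.45 CPM (SD, n = 5) against 64.9 ± 8.14 CPM (n = 10), 3 of 5 lay above all controls and it was not called (0.16 ± 0.09, adjusted p = 0.133), but was called with library totals alone (0.56, adjusted p = 3.36e-06) and with a filter at a mean of 20 CPM (0.53, adjusted p = 1.33e-06).

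Ehhadh went in opposite directions at the 2 highest concentrations of 1,2-DCB in liver. It ran from 10.5 through 14.5 to 18.1 CPM in controls, read 16.8, 17.02, 17.3, 20.5 and 26.4 CPM at 250 ppm and 6.50, 7.56, 7.70, 10.0 and 13.5 CPM at 500 ppm. At 250 ppm 2 of 5 livers lay above all controls, and at 500 ppm 4 of 5 lay below all controls. The changes were 0.44 ± 0.15 (SE, adjusted p = 0.0324) and -0.68 ± 0.16 (adjusted p = 0.000383). The call at 250 ppm was lost without rat F504 or F505 (adjusted p = 0.0606 and 0.183) or without control rat F5 or F9 (adjusted p = 0.0576 and 0.0524), and the one at 500 ppm was lost with library totals alone (-0.29, adjusted p = 0.0902). With 1,4-DCB Ehhadh rose at 800 ppm, from 17.05 ± 3.398 CPM (SD, n = 10) to 25.2 ± 3.23 CPM (n = 5), with 4 of 5 above all controls (0.56 ± 0.16, adjusted p = 0.00524).

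Acadm was lower in liver at 500 ppm of 1,2-DCB under TMM factors and with library totals alone. It ran from 66.4 through 79.3 to 95.6 CPM in controls, read 77.1 to 90.8 CPM at 250 ppm and 42.7, 43.8, 44.3, 45.6 and 47.7 CPM at 500 ppm. The 5 livers at 500 ppm lay far below all controls and close together (-0.86 ± 0.08, SE, adjusted p = 1.14e-11; -0.46 with library totals alone, adjusted p = 7.29e-05). With 1,4-DCB Acadm read 72.9 to 88.8 CPM at 800 ppm, within the control range of 77.2 to 92.004 CPM but for 1 liver (-0.08 ± 0.06, adjusted p = 0.357).

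Cyp4a2 and Crat were also called lower at 500 ppm of 1,2-DCB in liver, and both calls hung on the scaling. The abundant Cyp4a2 probe read 86.8, 89.4 and 104.7 CPM in 3 livers and up to 114.2 CPM in the other 2, against 106.7 to 179.1 CPM (median 141.5) in controls, with 4 of 5 below all controls (-0.49 ± 0.11, SE, adjusted p = 0.000168). With library totals alone its change was -0.08 (adjusted p = 0.513). Crat read 12.8, 13.8, 15.1, 17.6 and 18.8 CPM against 14.5 to 40.3 CPM (median 19.8), with 2 of 5 below all controls (-0.60 ± 0.22, adjusted p = 0.0151), and with library totals alone its change was -0.22 (adjusted p = 0.371). With 1,4-DCB at 800 ppm neither was called in liver, at -0.23 ± 0.11 for Cyp4a2 (adjusted p = 0.107) and 0.06 ± 0.18 for Crat (adjusted p = 0.844).

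**Figure D3:**
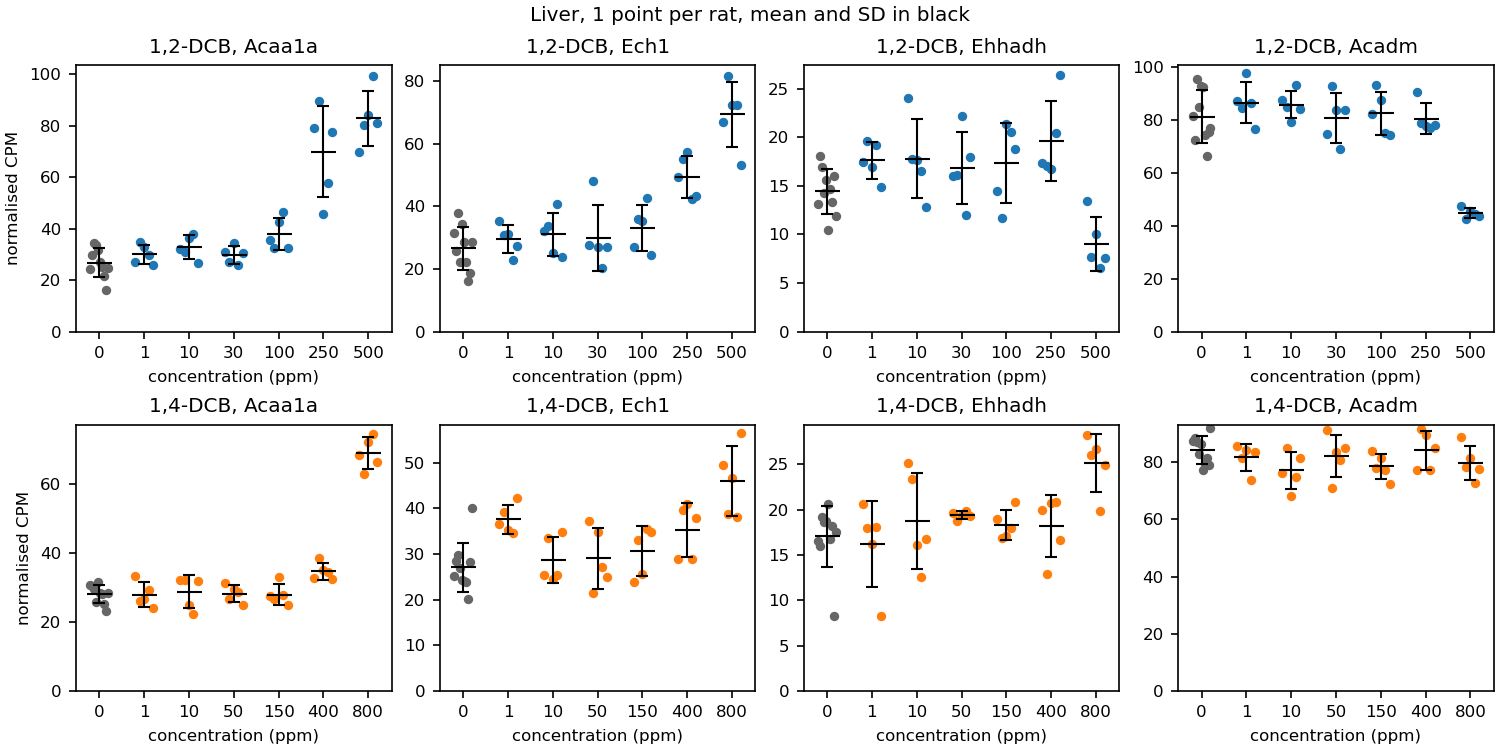
Normalised CPM in each liver (points) by concentration in ppm, with the group mean and SD in black, for Acaa1a, Ech1, Ehhadh and Acadm under 1,2-DCB (top) and 1,4-DCB (bottom). Every axis starts at 0. At 500 ppm of 1,2-DCB Acaa1a and Ech1 stood above all controls in 5 of 5 livers, Acadm below all controls in 5 of 5 and Ehhadh in 4 of 5.

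The other pathway probes of the liver moved both ways with 1,2-DCB, as all probes did. At 500 ppm 16 of 54 tested probes were higher and 21 lower, beside 67.8% of all probes called. At 800 ppm of 1,4-DCB 12 of 53 were higher and 6 lower, beside 34.9%. Both totals lay near the share over all probes, so they do not set these lists apart from the panel. Counts of single lists here and in the next paragraph are to be read against these shares. Of 11 probes on the peroxisomal list 5 rose and 6 fell with 1,2-DCB, among them Acot4 (0.83 ± 0.12, SE, adjusted p = 1.20e-07), Scp2, a sterol carrier and thiolase (-0.81 ± 0.11, adjusted p = 4.19e-08), Hao2, a hydroxyacid oxidase (-2.21 ± 0.25, adjusted p = 7.96e-10), and Acox2, an oxidase of branched chains and bile acid precursors (-1.37 ± 0.17, adjusted p = 3.50e-09). With 1,4-DCB 4 rose and 1 fell: Eci2 by 0.47 ± 0.07 (adjusted p = 2.09e-06), Acot4 by 0.47 ± 0.13 (adjusted p = 0.00322) and Acox2 by 0.27 ± 0.09 (adjusted p = 0.0172) were among the higher, and Hao2 fell (-1.35 ± 0.26, adjusted p = 6.85e-05). Of the omega hydroxylases 0 rose and 1 of 3 fell with 1,2-DCB, Cyp4f4 (-1.10 ± 0.14, adjusted p = 4.83e-09), and 0 of 3 was called with 1,4-DCB.

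Of 15 probes on the mitochondrial list 5 rose and 7 fell in liver with 1,2-DCB. Acot1, a cytosolic acyl-CoA thioesterase placed on this list, with close relatives in the same cluster of genes, rose by 5.15 ± 0.59 (SE, adjusted p = 1.46e-09). Cpt2 rose by 0.92 ± 0.11 (adjusted p = 5.51e-09). Hadh, the short-chain hydroxyacyl dehydrogenase, fell (-1.27 ± 0.16, adjusted p = 5.07e-09), as did Etfb, a subunit of the electron carrier behind the acyl-CoA dehydrogenases (-0.57 ± 0.07, adjusted p = 7.91e-09). With 1,4-DCB 6 of 14 rose and 1 fell, led by Cpt2 (1.02 ± 0.12, adjusted p = 1.29e-08), Acadl (0.59 ± 0.12, adjusted p = 0.000140), Eci1 (0.60 ± 0.13, adjusted p = 0.000464) and Acaa2 (0.55 ± 0.15, adjusted p = 0.00335). Among 15 other PPAR target genes 5 rose and 4 fell with 1,2-DCB: Aqp7, a glycerol channel (3.96 ± 0.43, adjusted p = 2.57e-10), and the hormone Fgf21 (3.18 ± 0.36, adjusted p = 6.57e-10) rose, and the fatty acid binding protein Fabp1 (-2.15 ± 0.17, adjusted p = 8.17e-14) and the kinase Pdk2 (-0.62 ± 0.11, adjusted p = 8.31e-06) fell. With 1,4-DCB 2 of 15 rose and 1 fell: Mgll (0.90 ± 0.17, adjusted p = 5.76e-05) and Fgf21 (1.70 ± 0.47, adjusted p = 0.00415) rose and the lipase Lpl fell (-1.003 ± 0.22, adjusted p = 0.000321). Of 10 receptor and coregulator probes 1 rose and 3 fell with 1,2-DCB and 3 fell with 1,4-DCB, with Ppard at -3.04 ± 0.33 (adjusted p = 1.82e-10) and -0.93 ± 0.27 (adjusted p = 0.00584) and the partner receptor Rxra at -0.72 ± 0.08 with 1,2-DCB (adjusted p = 3.41e-10).

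The difference between the 2 organs was tested directly at the top concentration, as the liver change less the kidney change in 1 fit of both organs. Both organs were normalised together in that fit. Its values are therefore not the separate organ changes given above subtracted from each other. Decr1, for example, had 0.16 in liver and 0.56 in kidney with 1,2-DCB and a tested difference of -0.61. With 1,2-DCB 6 of 8 member probes tested in both organs differed, where 43.3% of all probes did. Ehhadh differed by -2.13 ± 0.22 (SE, adjusted p = 1.49e-12), Acadm by -1.50 ± 0.11 (adjusted p = 1.34e-18), Cyp4a2 by -1.39 ± 0.25 (adjusted p = 2.46e-06), Crat by -1.17 ± 0.24 (adjusted p = 4.03e-05) and Decr1 by -0.61 ± 0.13 (adjusted p = 0.000118), all with the smaller or negative change in liver. Ech1 differed the other way, by 0.68 ± 0.20 (adjusted p = 0.00459). Vnn1 (-0.13 ± 0.28, adjusted p = 0.752) and Acaa1a (-0.41 ± 0.22, adjusted p = 0.121) were not called. With each organ normalised on its own no member's call was lost. Library totals alone were not tried for this difference. In liver by itself that scaling removed the calls of Ehhadh, Cyp4a2 and Crat and gave Decr1 a call as higher.

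With 1,4-DCB 2 of 8 differed, where 13.3% of all probes did: Cyp4a2 by -1.68 ± 0.23 (SE, adjusted p = 2.99e-08) and Acadm by -0.49 ± 0.10 (adjusted p = 0.000173). Cyp4a2 was called higher in kidney and was not called higher in liver at the top concentration of either compound. Ehhadh (-0.65 ± 0.24, adjusted p = 0.0562) was not called in this fit, and was called with the animal as a replicate block (-0.66, adjusted p = 0.00635). Ech1 (0.40 ± 0.18, adjusted p = 0.130) was called when each organ was normalised on its own (0.49, adjusted p = 0.0427) or with a filter at 20 CPM (0.49, adjusted p = 0.0283).

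**Figure D4:**
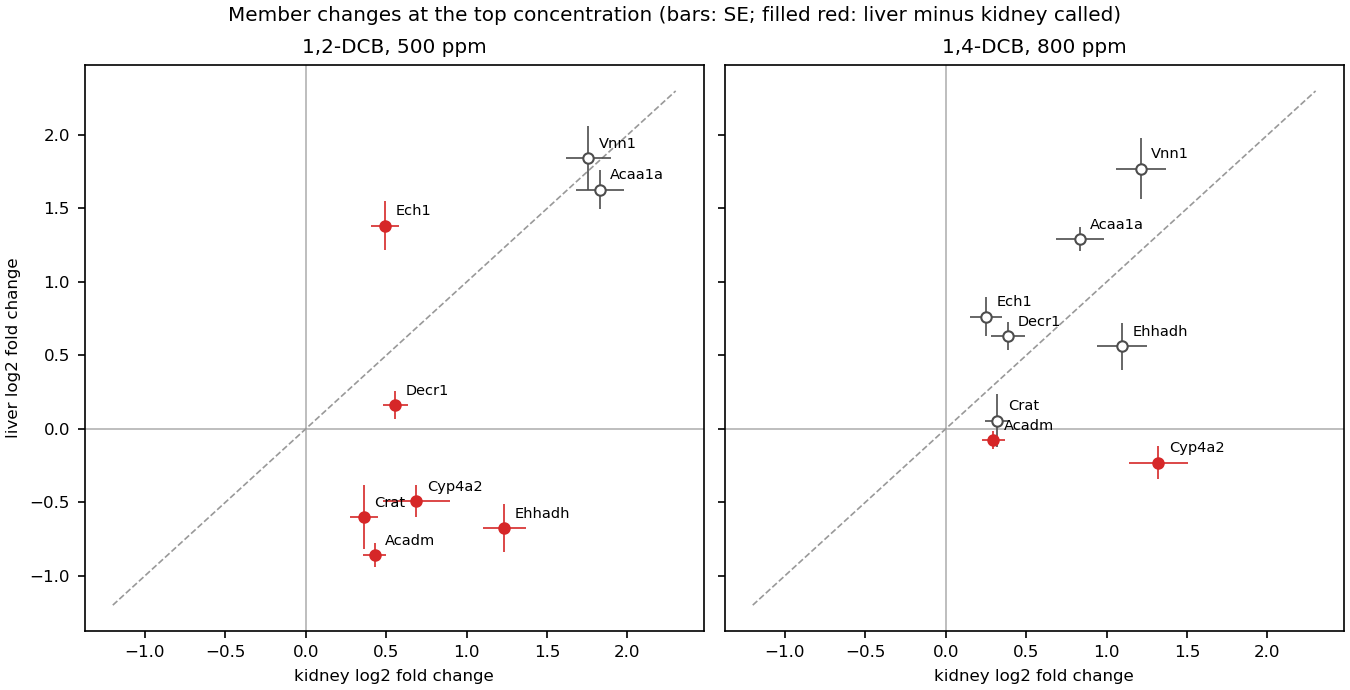
Log2 fold change of 8 member probes in kidney (x axis) and in liver (y axis) at 500 ppm of 1,2-DCB (left) and 800 ppm of 1,4-DCB (right). Bars are SE, the dashed line marks equal change and filled red points mark probes called in the direct test of liver minus kidney. That test normalised both organs together, so its values are not distances from the line. Cyp4a2 lies below the line with both compounds, at 0.69 and 1.32 in kidney and -0.49 and -0.23 in liver.

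Heart, lung and ovary gave few calls. At 500 ppm of 1,2-DCB 0 of 8 members was called by edgeR in heart, where 12% of all probes were called, and 0 of 8 in ovary, where 2.91% were. At an unadjusted p below 0.05 there were 1 and 0, and DESeq2 and limma voom called 1 in heart and 0 in ovary. In lung 1 of 8 was called, where 8.85% were: Acaa1a, from 16.7 ± 2.32 CPM (SD, n = 10) to 21.4 ± 3.58 CPM (n = 4), with 2 of 4 above all controls (0.35 ± 0.11, SE, adjusted p = 0.0415). That call was lost without any of 3 of the 4 exposed rats and without any of 7 of the 10 control rats (largest adjusted p = 0.324), with library totals alone (adjusted p = 0.159), and when the library not used by the submitters was added (adjusted p = 0.0595). With 1,4-DCB at 800 ppm 0 of 8 was called in heart and 0 of 8 in lung, where 6.86% and 5.91% of all probes were called. There 3 and 1 had an unadjusted p below 0.05, and DESeq2 and limma voom also called 0.

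Ehhadh in heart stayed just outside the threshold with 1,2-DCB. It was scarce, at 5.12 ± 1.45 CPM (SD, n = 10) in controls, and read 8.72 ± 2.01 CPM (n = 5) at 500 ppm, with 5 of 5 above all controls (0.77 ± 0.27, SE, adjusted p = 0.0550). DESeq2 (adjusted p = 0.0395), limma voom (adjusted p = 0.0370) and a fit of only these 2 groups (adjusted p = 0.0155) called it. Among the other pathway probes in the same hearts 3 of 48 rose and 1 fell, with the lipase Pnpla2 at 0.68 ± 0.10 (adjusted p = 7.27e-06). At 800 ppm of 1,4-DCB Pnpla2 rose as well in heart (0.52 ± 0.09, adjusted p = 2.01e-04), where 6 of 48 rose and 1 fell, and in lung 0 of 55 rose and 4 fell.

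Vnn1 in ovary gave the largest change of any member probe called at a top concentration. With 1,4-DCB at 800 ppm it was the 1 member called of 8, where 8.47% of all probes were called. Controls ran from 184 through 314 to 1428 CPM, and the 5 ovaries at 800 ppm read 425, 2630, 4166, 4178 and 4441 CPM. Of these 4 lay above all controls and the remaining one, from rat F601, lay among them (2.64 ± 0.49, SE, adjusted p = 0.000682). At 400 ppm the ovaries read 162 to 431 CPM, within or below the control range. With 1,2-DCB at 500 ppm they read 226, 293, 332, 361 and 741 CPM against 180 to 861 CPM in controls (0.13 ± 0.56, adjusted p = 0.941), and at 250 ppm 1 of 5 (rat F502) read 3762 CPM with the others between 326 and 735 CPM. That ovary stood apart over all probes (r of 0.957, where the tissue's median was 0.978), as did those of rats F604 (0.948) and F605 (0.960) at 800 ppm of 1,4-DCB, control rats F5 (0.948) and F4 (0.964), rat F502 at 400 ppm (0.939) and 3 of the 5 at 500 ppm of 1,2-DCB (0.952 to 0.964). Leaving out any 1 rat of the controls or of 800 ppm of 1,4-DCB gave changes from 2.497 to 2.96, all called (largest adjusted p = 0.00407). Summed ovary markers (8 of 12 listed genes on the panel) ran from 8981 to 15477 CPM by library total in the 1,4-DCB controls and from 15731 to 21440 CPM at 800 ppm, with Lhcgr, the luteinizing hormone receptor, higher by 1.82 ± 0.30 (adjusted p = 0.000168) and Star by 0.71 ± 0.22 (adjusted p = 0.0418). Summed clock genes in the same ovaries ran from 422 to 586 CPM in controls and from 872 to 1235 CPM at 800 ppm, and in the 1,2-DCB ovaries, where Vnn1 was not called, from 389 to 898 and from 852 to 1154 CPM. Summed adipocyte markers (4 of 9 listed genes) overlapped, at 125.2 to 1060 and 44.3 to 1534 CPM. The part of these genes in the change of Vnn1 was not tested.

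**Figure D5:**
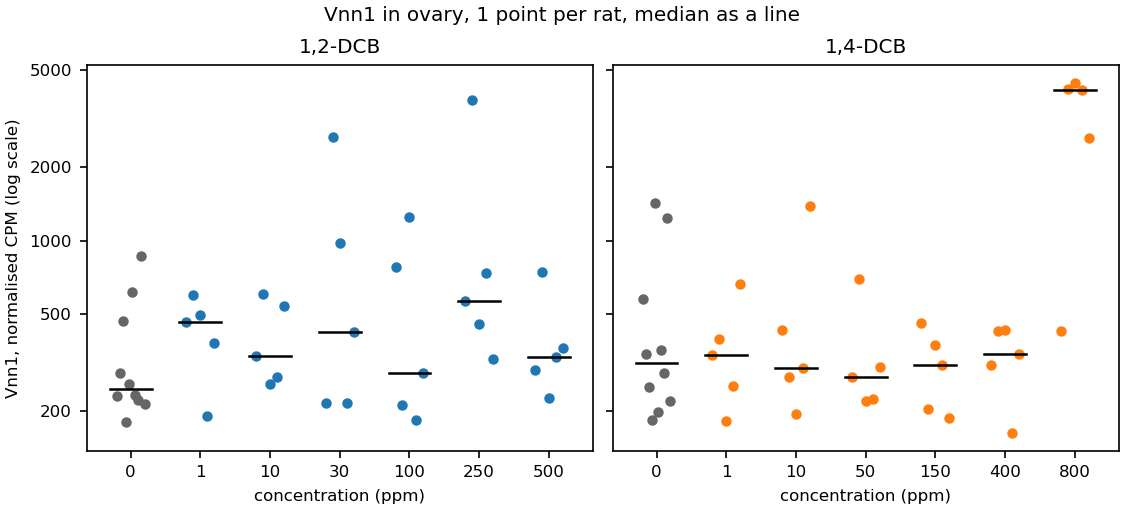
Vnn1 in each ovary (points) by concentration in ppm, as normalised CPM on a log axis, with group medians as lines, for 1,2-DCB (left) and 1,4-DCB (right). At 800 ppm of 1,4-DCB 4 of 5 ovaries read from 2630 to 4441 CPM and 1 read 425 CPM, while single ovaries at 30 and 250 ppm of 1,2-DCB also stood far above their groups.

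Below 100 ppm members were called in 1 comparison. In heart at 1 ppm of 1,2-DCB Acadm (-0.58 ± 0.16, SE, adjusted p = 0.0310) and Ech1 (-0.47 ± 0.14, adjusted p = 0.0336) were lower, 2 of 8, where 5.64% of all probes were called and 1.39% were called lower. Both rested on rats F101 and F102, whose hearts stood apart from the other hearts: Acadm read 427 and 256 CPM in them and 879, 916 and 928 CPM in the other 3, and the controls ran from 860 to 1169 CPM. Myl2, the ventricular myosin light chain, made up 210739 and 90007 CPM by library total in these hearts and 297118 to 354715 CPM in controls, and Adipoq, an adipocyte marker, 176 and 31.4 CPM against 0 to 0.877 CPM. Summed adipocyte markers (4 of 9 listed genes) reached 225 CPM at 1 ppm and ran from 8.25 to 14.4 CPM in controls. Without these 2 hearts the changes were -0.17 and -0.16 (adjusted p = 0.998 for both) and 0 of 8 was called. In the other tissues and concentrations below 250 ppm of 1,2-DCB, apart from Acaa1a in liver at 100 ppm, and below 400 ppm of 1,4-DCB no member was called by edgeR, where 0 to 0.381% of all probes were called. Of those 320 member tests 16 had an unadjusted p below 0.05. The few probes called there lay in kidney (0.381%) and liver (0.0495%) at 10 ppm and in lung at 30 ppm (0.0434%) of 1,2-DCB. At 250 and 400 ppm no member was called in heart, lung or ovary, where 0.0435% of all probes were called in ovary at 250 ppm and none in the other 5 comparisons, and 5 of these 48 member tests had an unadjusted p below 0.05.

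The compounds share only 1 and 10 ppm, and at those concentrations the change with 1,4-DCB minus the change with 1,2-DCB was tested for each member in each tissue, 84 tests in all, adjusted over all probes of a comparison. One was called, Ech1 in heart at 1 ppm (0.69 ± 0.16, SE, adjusted p = 0.0108), where 1.03% of all probes were called and where the 1,2-DCB side holds the 2 hearts that stood apart. In heart at 10 ppm 1.17% of all probes were called and no member. In liver and kidney 0 of 36 was called by edgeR and 5 had an unadjusted p below 0.05, and none of the other probes was called. The intervals (2 SE on either side) still allow differences: in liver Acaa1a differed by -0.18 (-0.51 to 0.15) at 1 ppm and -0.26 (-0.59 to 0.07) at 10 ppm, and Vnn1 by -0.90 (-1.56 to -0.24) at 10 ppm with an adjusted p of 0.999. In kidney the abundant Cyp4a2 probe differed by 0.18 (-0.43 to 0.78) and 0.64 (0.06 to 1.22, adjusted p = 0.576). No member was called between the controls of the compounds, where 0.67% of all probes were called in liver, 2.95% in heart, 1.31% in lung, 0.631% in ovary and none in kidney. Crat in lung came just short, 0.28 higher in the 1,4-DCB controls (adjusted p = 0.0509 in edgeR's test). Decr1 (-0.22) and Vnn1 (-0.32) in lung and Vnn1 (0.29) and Cyp4a2_8426 (-0.68) in kidney also had an unadjusted p below 0.05. The higher concentrations differ between the compounds (250 and 500 ppm against 400 and 800 ppm) and were not compared. Side by side, the abundant Cyp4a2 probe in kidney read -0.14 and 0.69 at 250 and 500 ppm of 1,2-DCB and 0.96 and 1.32 at 400 and 800 ppm of 1,4-DCB, and Acaa1a in kidney read 0.50 and 1.83 and 0.35 and 0.83.

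The members had different orders of tissues in control rats, here by library total over 18 to 20 controls a tissue, as a description without a test. Cyp4a2_32530 was highest in kidney (3185 ± 871 CPM, SD), then liver (137.1 ± 22.8 CPM), and at 1.37 to 1.66 CPM in heart, lung and ovary, whose ranges overlapped. Ehhadh followed the same order, at 52.01 ± 10.9 CPM in kidney, 15.02 ± 3.18 CPM in liver and 3.505 to 4.84 CPM in the others. Acaa1a stood at 140.7 ± 25.7 CPM in kidney and 14.6 to 26.2 CPM elsewhere. Acadm, Crat and Ech1 were highest in heart, at 1001 ± 90.7, 849 ± 128.8 and 1829 ± 189 CPM, clear of the next tissue. Decr1 was alike in heart (548 ± 74.5 CPM) and ovary (508 ± 80.1 CPM), whose ranges overlapped. Vnn1 ranged most in ovary (436 ± 364 CPM), overlapped there with heart (310 ± 53.04 CPM), kidney (243 ± 42.5 CPM) and lung (153.2 ± 26.6 CPM), and was lowest in liver (4.75 ± 1.37 CPM).

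A few abundant transcripts take most of the adjusted counts in liver, so the liver's place depended on the scaling. With TMM factors over all tissues Acaa1a stood at 155.5 ± 25.7 CPM (SD, n = 20) in liver and 113.9 ± 23.5 CPM (n = 19) in kidney, and Ehhadh at 89.2 ± 18.5 and 41.8 ± 8.74 CPM, so that liver came first for both, with overlapping ranges. Cyp4a2 stayed highest in kidney (2556 ± 627 CPM against 815 ± 138.9 CPM in liver), and Acadm, Crat and Ech1 stayed highest in heart.

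Outside the 8 members, the genes whose levels went most closely with each one were sought over 80 liver and 78 kidney libraries, as the mean of the Pearson r in liver and in kidney. The libraries share animals and exposures, so the values only describe these data. Acaa1a went most closely with Aldh1a1 (0.87), Ephx1 (0.87) and Gsta2 (0.86), Vnn1 with Aldh1a1 (0.83), Gsta2 (0.82) and Ephx1 (0.78), and Ech1 with Aldh1a1 (0.70), Ephx1 (0.65) and Mrpl12 (0.63). Cyp4a2 went with Pank1 (0.61), Cyp4a1 (0.58) and Mgst1 (0.56), and Ehhadh with Maob (0.63) and Kmo (0.57). Decr1 went with Eci2 (0.71), Gsta2 (0.69) and Eci1 (0.63), Acadm with Gstz1 (0.76), Marchf1 (0.73) and Gamt (0.73), and Crat with Gpx4 (0.505), Trappc6a (0.48) and Pcbd1 (0.43).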

How the data were processed

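Expression was measured with TempO-Seq, in which pairs of detector oligos are ligated on their target RNA and sequenced, on the rat S1500+ panel. The deposited values are raw read counts per probe that the authors had adjusted for attenuation, and they were used as deposited. CPM and library totals here are therefore not plain read counts. Bowtie 1.3.1 is named in the submitters' processing notes. The genome build behind the probes is not given in the sources that were used. The submitters marked 9 libraries as not used (2 as outliers, 5 for low depth and 2 for a low alignment rate), and they stayed out. In these adjusted counts the abundant Cyp4a2 probe comes in multiples of a fixed step, so its low levels are coarse. Library totals of the adjusted counts ran from 1202354 to 69774071 and were highest in liver (median 41945612). They do not give the number of reads.

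Each tissue and compound was fitted by edgeR 4.0.16 (R 4.3.3) with TMM factors, its default filter on low counts and the robust quasi-likelihood test, all concentrations together, in 10 fits and 60 comparisons. P-values were adjusted by Benjamini-Hochberg over all probes of a comparison and called below 0.05. Liver and kidney were joined in 1 fit per compound for their difference, and the compounds in 1 fit per tissue for 1 and 10 ppm. P-values measure the spread between these rats. The number in the labels was read as the animal, so liver and kidney were taken as paired. Between organs of the same number, deviations from group means correlated with a median r of 0.178 over 39 rats for 1,2-DCB (29 above 0.1). For 1,4-DCB it was 0.170 over 39 rats (27 above 0.1). Organs of different numbers were not compared in this way, so these r do not settle the pairing. The main fit of the difference did not use the pairing. Alternatives were DESeq2 1.42.0, limma 3.58.1 (voom), other scaling and filters, the animal as a block, the marked libraries added and each rat left out. The scripts were tested on simulated data. The rule for named genes took the members and, from each pathway list, up to 4 called genes with the smallest p at the top concentration, and for likeness the 3 genes with the highest mean r among probes of at least 20 CPM. The members and lists were chosen with earlier results of these data known. Some called pathway genes and 1 gene of the likeness search are not reported here.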

Additional observations from a re-analysis of the deposited data

Results flagged for a closer look

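Each member probe was screened in the controls and at the 2 highest concentrations of each tissue and compound, lower concentrations were not, and in 23 of 244 such sets of 4 to 10 rats 1 value lay far from the others, where chance alone gives about 1 in 20. Of these, 9 were the abundant Cyp4a2 probe where it is near 0. In heart it read 8.10 CPM in 1,2-DCB control rat F6 (nearest rat 3.70), 7.97 CPM at 250 ppm in rat F505 (nearest 0.956), 5.49 CPM at 500 ppm in rat F603 (nearest 0.98) and 7.73 CPM in 1,4-DCB control rat F7 (nearest 3.91). In lung it read 10.5 CPM in 1,2-DCB control rat F4 (nearest 3.12) and 4.96 CPM in 1,4-DCB control rat F1 (nearest 1.15). In ovary it read 6.22 CPM in rat F603 at 500 ppm of 1,2-DCB (nearest 0.61), 9.47 CPM in 1,4-DCB control rat F7 (nearest 2.37) and 13.7 CPM in rat F603 at 800 ppm (nearest 2.47).

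In kidney Cyp4a2_8425 read 14.3 CPM in 1,4-DCB control rat F1 (nearest 8.41). Decr1 in heart read 727 CPM in 1,2-DCB control rat F1 (nearest 609) and 677 CPM in 1,4-DCB control rat F8 (nearest 575). In 1,4-DCB control livers Ech1 read 40.1 CPM in rat F9 (nearest 29.7) and Ehhadh 8.23 CPM in rat F8 (nearest 15.9). Ehhadh in ovary read 10.6 CPM in 1,4-DCB control rat F9 (nearest 4.98). At 250 ppm of 1,2-DCB Acadm read 90.8 CPM in the liver of rat F501 (nearest 78.8) and 1133 CPM in its heart (nearest 999), Crat 290.2 CPM in the kidney of rat F503 (nearest 218), Decr1 660.1 CPM in the heart of rat F503 (nearest 516) and Vnn1 3762 CPM in the ovary of rat F502 (nearest 735). Acadm in ovary read 151.1 CPM in rat F502 at 400 ppm of 1,4-DCB (nearest 108.3). Vnn1 in ovary read 741 CPM in rat F602 at 500 ppm of 1,2-DCB (nearest 361). Acaa1a in lung read 27.6 CPM in rat F605 at 800 ppm of 1,4-DCB (nearest 20.7).

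The liver change less the kidney change, with both organs normalised together, was called in edgeR's test for 6 members with 1,2-DCB, at -2.13 for Ehhadh, -1.50 for Acadm, -1.39 for Cyp4a2, -1.17 for Crat, -0.61 for Decr1 and 0.68 for Ech1, and for 2 with 1,4-DCB, at -1.68 for Cyp4a2 and -0.49 for Acadm. Between the compounds Ech1 in heart at 1 ppm differed by 0.69, with the 2 hearts that stood apart on the 1,2-DCB side.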

How the results depend on the processing

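In liver at 500 ppm and 250 ppm of 1,2-DCB and at 800 ppm of 1,4-DCB a filter at a mean of 20 CPM gave 4, 3 and 3 member probes called in place of 7, 5 and 5, and in kidney at 400 ppm of 1,4-DCB 1 in place of 3. At 500 ppm Vnn1 and Ehhadh did not pass that filter, Cyp4a2 (-0.11, adjusted p = 0.373) and Crat (-0.23, adjusted p = 0.313) passed it and lost their calls, and Decr1 gained one; in the other 3 the lost probes did not pass it. In heart at 500 ppm of 1,2-DCB, with 0 called, DESeq2, limma voom, a fit of that group and its controls only, and leaving out the 2 hearts at 1 ppm each gave 1. In heart at 1 ppm 2 calls became 0 without those 2 hearts and 0 in a fit of that group and its controls only. DESeq2 gave 3 there with those 2 hearts kept. In lung at 500 ppm of 1,2-DCB 1 call became 0 with the 20 CPM filter, with the marked library added, with library totals alone and with the group and its controls only. In liver at 400 ppm of 1,4-DCB 2 became 1 with the group and its controls only, and in lung at 800 ppm 0 became 2 with library totals alone (Ech1 and Crat lower). Acadm in liver at 250 ppm of 1,2-DCB turned from -0.01 to 0.31 (adjusted p = 0.00818) with library totals alone. Apart from probes that did not pass the filter, the cause was not tested. Library totals, the settings without the 2 hearts, each rat left out at 100 ppm and factors within each organ were chosen after seeing the data.

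Leaving out each rat in turn gave 0 to 1 calls in liver at 100 ppm, heart at 500 ppm (1 without control rat F2 or F9) and lung at 500 ppm of 1,2-DCB, 0 to 3 in liver and 1 to 3 in kidney (1 without rat F504) at 400 ppm of 1,4-DCB. It gave 6 to 7 in liver and 7 to 8 in kidney at 500 ppm of 1,2-DCB, and 5 to 6 in liver and 7 to 9 in kidney at 800 ppm of 1,4-DCB. The animal as a replicate block kept 6 calls of liver minus kidney with 1,2-DCB and gave 3 in place of 2 with 1,4-DCB, where Ehhadh was added (-0.66), and changed no other call. Depth was not tested as a limit; counts of Cyp4a2_32530 come in steps of 7 and were above 0 in 29 of 80 heart, 50 of 72 lung and 40 of 80 ovary libraries.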
